A study of Mus musculus with 9 samples.

Results

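Marker genes, 10 in number, of the connective tissue and smooth muscle that lie beneath the epidermis were followed across newborn mouse epidermal sheets. The fibroblast members were Col1a1, Col1a2, Col3a1, Dcn and Lum, and the smooth muscle members were Acta2, Tagln, Myh11, Cnn1 and Des. All probe sets of the array whose annotation gave one of these 10 genes as its only symbol were taken, which came to 19 of 45037 probe sets. The samples were trunk epidermis of newborn mice with 2 genotypes, 4 labelled Alox12b knockout and 5 labelled wildtype, the wildtype ones of strain 129S6. All were offspring of heterozygous Alox12b knockout parents and were killed directly after birth, so neither group received a treatment. Alox12b encodes the 12R-lipoxygenase of the epidermal barrier. The epidermis was pulled off the dermis by hand after a short bath in hot saline, and RNA of each sheet went to 1 Affymetrix Mouse Genome U430 2.0 array. The deposited values are on a log2 scale, where a difference of 1 is a doubling, and each sheet is called a biological replicate in the labels. The labels do not say how the Alox12b allele was made or whether sheets shared a litter.

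In skin, collagen I and collagen III form the fibrils of the dermis and are made by fibroblasts. Each collagen I molecule is built from chains of Col1a1 and Col1a2, and each collagen III molecule from chains of Col3a1 alone. Decorin (Dcn) and lumican (Lum) are small leucine-rich proteoglycans that bind these fibrils and regulate their thickness. Smooth muscle in skin lies in vessel walls and in the arrector pili muscles of hair follicles, and it contracts through smooth muscle actin (Acta2) and smooth muscle myosin (Myh11). Transgelin (Tagln) and calponin (Cnn1) bind the actin filaments. Desmin (Des) is the intermediate filament of smooth, skeletal and heart muscle. Acta2 and Tagln also mark myofibroblasts and pericytes. Keratinocytes are not a main source of these transcripts, so their level on an epidermal array bears on how much other tissue the sheet carried. In such bulk samples fewer cells of a type and less RNA per cell cannot be told apart.

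The array probes themselves were not used as sequences. The promoters of Col1a2 and Acta2 are shown because each had the widest range across arrays of its set. RefSeq (GRCm38.p6) held a promoter for 5 of the 10 genes, namely Col1a2, Col3a1, Acta2, Cnn1 and Des. The 250 bases before the start of Col1a2 lie at chr6:4505368-4505617 on the plus strand, and those of Acta2 at chr19:34255374-34255623 on the minus strand. Capitals mark a CCAAT box in Col1a2, the site of the factor NF-Y, and in Acta2 the CArG box, the site of the serum response factor that drives many smooth muscle genes.
Col1a2: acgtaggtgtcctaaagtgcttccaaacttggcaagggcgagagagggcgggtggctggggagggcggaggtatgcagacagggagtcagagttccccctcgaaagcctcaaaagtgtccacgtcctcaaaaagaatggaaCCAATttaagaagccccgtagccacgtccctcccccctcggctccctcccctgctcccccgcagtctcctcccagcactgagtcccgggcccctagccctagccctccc
Acta2: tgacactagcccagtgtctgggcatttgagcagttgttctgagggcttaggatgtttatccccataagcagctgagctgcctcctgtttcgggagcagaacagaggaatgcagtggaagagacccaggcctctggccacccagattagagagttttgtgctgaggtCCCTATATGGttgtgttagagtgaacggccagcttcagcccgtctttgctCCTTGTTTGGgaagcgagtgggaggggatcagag
The CArG box was searched as CC, then 6 bases that are A or T with up to 1 mismatch, then GG, on both strands. Acta2 held 2 such matches, with their first bases 84 and 34 bases before the start, and no match without a mismatch. Of 32851 promoters, 8.59% held the looser form and 1.47% the strict form. Col1a2 also held 1 match of the looser form, and none was found in the windows of Cnn1, Des and Col3a1. The CCAAT box, read as CCAAT or ATTGG, lay 109 bases before the start of Col1a2 and occurred in 33.8% of all promoters. Cnn1 held it at 128 and 47 bases before its start. The looser CArG form was added after the Acta2 sequence had been seen. A match describes the letters only.

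The sheets read as epidermis by their main keratins. Krt10, a keratin of the suprabasal layers, read 14.05 to 14.25 on the knockout arrays and 14.21 to 14.30 on the wildtype arrays. Krt14, a keratin of the basal layer, read 8.58 to 9.19 on the knockout arrays and 7.36 to 9.65 on the wildtype arrays, the lowest value being that of wildtype array 5. Alox12b did not separate the groups, at 11.13 ± 0.33 (SD, n = 4) in knockout and 10.91 ± 0.29 (SD, n = 5) in wildtype. The deleted part of the gene and the position of the probes were not known, so this checks nothing about the labels. Xist, the RNA of the inactive X chromosome, read 9.99 to 10.20 on the knockout arrays and 10.95 on wildtype array 4, but 3.23 to 4.32 on the other wildtype arrays, so sex and genotype nearly coincided.

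Fibroblast transcripts were present on every array and varied widely between sheets of 1 genotype. Col1a1 (probe set 1455494_at) read 7.28, 7.67, 5.47 and 9.59 on knockout arrays 1 to 4, against 7.27, 6.95, 7.80, 8.17 and 5.10 on wildtype arrays 1 to 5. Col1a2 (1450857_a_at) read 9.45, 9.42, 7.31 and 11.61 on the knockout arrays, against 9.20, 8.92, 9.73, 9.98 and 6.80 on the wildtype arrays. Col3a1 (1427883_a_at) read 9.78, 9.67, 7.43 and 11.61 on the knockout arrays, against 9.38, 9.37, 10.42, 9.69 and 7.40 on the wildtype arrays. Knockout array 4 was the highest of the 9 for all 3 collagen genes, while knockout array 3 and wildtype array 5 were the 2 lowest, and the groups overlapped. From the lowest to the highest array, the deposited values spanned 22.4-fold for Col1a1, 28.1-fold for Col1a2 and 18.5-fold for Col3a1.

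The proteoglycans of the collagen fibril had the same order at both ends. Dcn (1449368_at) read 7.24, 7.05, 5.75 and 8.94 on the knockout arrays, against 7.34, 7.11, 7.92, 6.95 and 5.37 on the wildtype arrays. Lum (1423607_at) read 5.56, 5.48, 4.45 and 8.15 on the knockout arrays, against 4.86, 4.90, 6.0, 5.21 and 4.01 on the wildtype arrays. Both were highest on knockout array 4 and lowest on wildtype array 5, with knockout array 3 next to lowest. Knockout array 4 stood above the mean of the other 3 knockout arrays by 2.78 for Col1a1, 2.88 for Col1a2, 2.65 for Col3a1, 2.26 for Dcn and 2.98 for Lum on the log2 scale. Knockout array 3 differed from the mean of knockout arrays 1 and 2 by -2.0, -2.12, -2.29, -1.39 and -1.07 for the same genes. Wildtype array 5 differed from the mean of the other 4 wildtype arrays by -2.44, -2.66, -2.31, -1.96 and -1.24. The plot of member genes by array shows these levels.

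**Figure D1:**
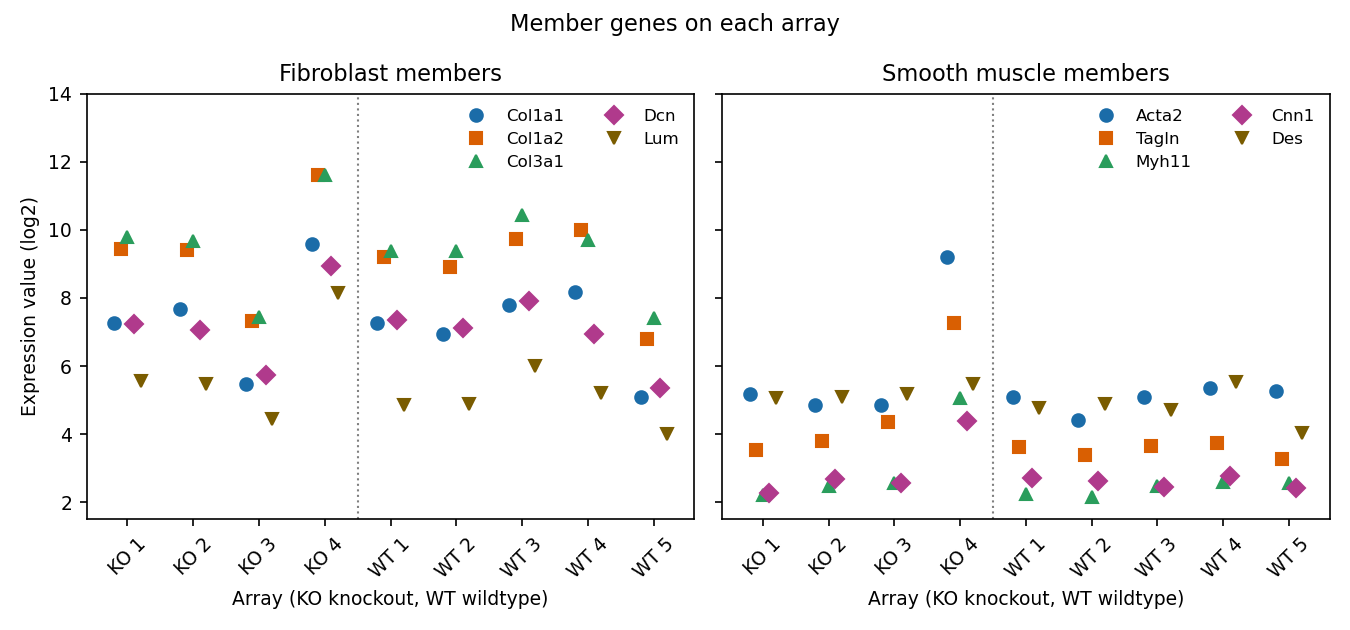
Log2 expression value (y axis) of the 5 fibroblast members (left) and the 5 smooth muscle members (right) on each array (x axis, knockout left of the dotted line and wildtype right of it), 1 point per gene and array. Knockout array 4 is the highest for 9 of the 10 genes, and knockout array 3 and wildtype array 5 are the 2 lowest for the 5 fibroblast members.

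Smooth muscle transcripts were high on 1 array and nearly level on the others. Acta2 (1416454_s_at) read 5.18, 4.86, 4.87 and 9.19 on the knockout arrays, against 5.09, 4.42, 5.09, 5.35 and 5.27 on the wildtype arrays. Tagln (1423505_at) read 3.54, 3.81, 4.35 and 7.28 on the knockout arrays, against 3.64, 3.40, 3.67, 3.73 and 3.27 on the wildtype arrays. The value of knockout array 4 lay 3.84 above the next highest array for Acta2 and 2.93 above it for Tagln. Against the mean of the other 3 knockout arrays, that array was 18.6-fold higher for Acta2 and 10.4-fold higher for Tagln. The Acta2 probe set is of a kind that can also bind related transcripts, by its suffix, and related actins are very similar in sequence.

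The more restricted smooth muscle genes followed at lower values. Myh11 (1448962_at) read 2.21, 2.49, 2.58 and 5.06 on the knockout arrays, against 2.25, 2.16, 2.49, 2.60 and 2.56 on the wildtype arrays. Cnn1 (1417917_at) read 2.27, 2.69, 2.56 and 4.39 on the knockout arrays, against 2.72, 2.63, 2.45, 2.78 and 2.41 on the wildtype arrays. Outside knockout array 4 both genes lay below every array's median of 3.14 to 3.31 over all probe sets, so their values there may not lie above background. Detection calls were not used here. A fold against such values can understate a change, and knockout array 4 stood 6.21-fold above the mean of the other knockout arrays for Myh11 and 3.68-fold for Cnn1.

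Des was the exception among the smooth muscle members. Its brighter probe set (1426731_at) read 5.05, 5.08, 5.17 and 5.48 on the knockout arrays, against 4.76, 4.89, 4.70, 5.53 and 4.05 on the wildtype arrays. Wildtype array 4 was the highest, 0.05 above knockout array 4, and wildtype array 5 was the lowest. Skeletal muscle also expresses desmin, and the mean of 20 skeletal muscle markers was 5.36 on wildtype array 4, 3.35 on wildtype array 5 and 3.83 on knockout array 4. The part of skeletal muscle in the Des values was not tested.

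The other probe sets of the members fell into a pair of kinds. The dimmer probe sets of Col1a1, Col1a2 (1423110_at) and Col3a1 followed the brighter ones over the 9 arrays, with Pearson r of 0.98, 1.00 and 0.98 as a description, since probe sets of a gene share the same RNA. Col3a1 probe set 1427884_at ran from 3.75 on knockout array 3 to 8.74 on knockout array 4. Another 5 probe sets stayed nearly flat and low on all 9 arrays, among them 1446326_at of Col1a2, with a range of 0.24, and 1441506_at of Dcn, with a range of 0.47. The others were 1456658_at and 1444105_at of Acta2, with ranges of 0.45 and 0.55, and 1418122_at of Myh11, with a range of 0.54. The dimmer Des probe set, 1426732_at, ran from 2.98 on wildtype array 5 to 3.67 on knockout array 4. In all, knockout array 4 was the highest for 14 of 19 member probe sets, where 19.9% of all probe sets had it highest, and by at least 1 for 12 of 19, where 0.32% of all probe sets did. Wildtype array 5 was the lowest for 11 of 19, beside 21.2% of all probe sets. Knockout array 3 and wildtype array 5 were the 2 lowest for 8 of 19, beside 3.57% of all probe sets.

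Among all genes, with the brightest probe set standing for each, knockout array 4 was the highest of the 9 for 18.9%. It was the highest for 9 of the 10 members, and by at least 1 on the log2 scale for the same number, where 0.489% of all genes, or 89 of 18193, reached that margin. Of these 89 genes, 32 were members or belonged to one of the cell type lists described below. Beside the members they were 16 of 30 fibroblast matrix and 3 of 21 smooth muscle contractile genes. The rest were 2 of 18 collagen folding genes and 2 of 15 regulators, and the other lists held 0. The lists were chosen with earlier results of these data known. Wildtype array 5 was the lowest for 7 of the 10 members, where it was the lowest for 21.9% of all genes. Knockout array 3 and wildtype array 5 were the 2 lowest for 5 of 5 fibroblast members and 0 of 5 smooth muscle members, where 3.64% of all genes had that pair lowest.

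The fibroblast members moved as a block, and 4 of the 5 smooth muscle members were high together on 1 array. Pearson r between pairs of fibroblast members over the 9 arrays ran from 0.89 to 1.00 with a median of 0.94 over 10 pairs, and from 0.85 to 0.99 with a median of 0.92 over the 8 arrays without knockout array 4. Between pairs of smooth muscle members r had a median of 0.94 over 9 arrays and ran from 0.41 to 0.98. Without knockout array 4 it ran from -0.19 to 0.59, with a median of 0.21. Between a fibroblast and a smooth muscle member the median was 0.63 over 25 pairs, and 0.03 without knockout array 4. These are descriptions, as all pairs come from the same arrays and their shared normalization. Outside knockout array 4, Myh11 and Cnn1 lay below every array's median. For them r without that array cannot show whether they moved with the other members. The mean of the fibroblast members was 7.86, 7.86, 6.08 and 9.98 on the knockout arrays, against 7.61, 7.45, 8.38, 8.0 and 5.74 on the wildtype arrays. The mean of the smooth muscle members was 3.65, 3.79, 3.91 and 6.28 on the knockout arrays, against 3.69, 3.50, 3.68, 4.00 and 3.51 on the wildtype arrays. Knockout array 3 and wildtype array 5, low in fibroblast transcripts, were thus not set apart in the smooth muscle mean. That mean includes values near background. Des and Tagln were each lowest on wildtype array 5, at 4.05 and 3.27.

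**Figure D2:**
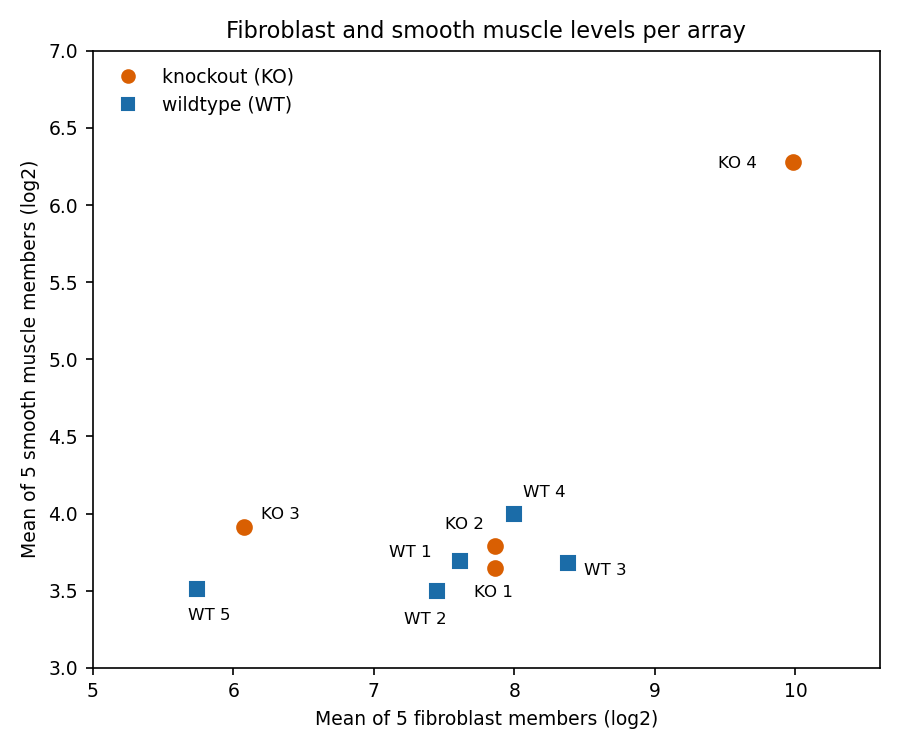
Mean log2 value of the 5 fibroblast members (x axis) against that of the 5 smooth muscle members (y axis), 1 point per array, circles for knockout and squares for wildtype. Knockout array 4 stands alone at 9.98 and 6.28, while the other 8 arrays spread from 5.74 to 8.38 on the x axis and only from 3.50 to 4.00 on the y axis.

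The comparison of genotypes asks whether knockout and wildtype sheets carried these transcripts at different levels. In limma 0 of 10 member genes reached an adjusted p below 0.05, beside 1.24% of 18193 genes. Without adjustment 0 of 10 had p below 0.05, beside 17.8% of all genes. On the probe set level 0 of 19 passed in limma, beside 1.11% of all probe sets, and 0 of 19 had p below 0.05 without adjustment, beside 16.3%. The groups did not overlap for 0 of 10 members, where 8.28% of all genes were separated, and for 0 of 19 member probe sets, beside 7.18% of all probe sets. All 10 differences, knockout minus wildtype, were positive, as were 9729 of all 18193. Their median was 0.44 for the fibroblast members and 0.68 for the smooth muscle members, beside 0.02 for all genes.

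For the collagen genes and Dcn the SD within each group exceeded the difference, while for Lum the knockout SD did and the wildtype SD did not. Col1a1 averaged 7.50 ± 1.69 (SD, n = 4) in knockout and 7.06 ± 1.19 (SD, n = 5) in wildtype, a difference of 0.44 with a 95% interval of -1.26 to 2.15 (limma, adjusted p = 0.789). Lum had the largest difference of these 5, with 5.91 ± 1.57 (SD, n = 4) in knockout and 5.00 ± 0.72 (SD, n = 5) in wildtype, 0.91 in log2 units (limma, adjusted p = 0.471). The differences of Col1a2, Col3a1 and Dcn were 0.52, 0.37 and 0.31, with limma adjusted p values of 0.762, 0.825 and 0.818. The 95% intervals of the 3 collagen genes and Dcn all held differences of 1 log2 unit in both directions, so a change of that size was not detectable with these arrays. The residual spread of Col1a2, 1.49, was larger than that of 99.9% of all genes.

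For Acta2, Tagln, Myh11 and Cnn1 the wildtype arrays lay close together and knockout array 4 stood above the other knockout arrays. Acta2 averaged 6.03 ± 2.11 (SD, n = 4) in knockout and 5.04 ± 0.37 (SD, n = 5) in wildtype, 0.98 apart on the log2 scale (limma, adjusted p = 0.519). Without the less specific probe set, 1 of the flat and dim ones stands for Acta2 and the difference was 0.13, and with the mean of its 3 probe sets it was 0.37. Tagln averaged 4.75 ± 1.72 (SD, n = 4) in knockout and 3.54 ± 0.20 (SD, n = 5) in wildtype, a difference of 1.20 with a 95% interval of -0.17 to 2.58 (limma, adjusted p = 0.337). Myh11, Cnn1 and Des differed by 0.68, 0.38 and 0.41, with limma adjusted p values of 0.481, 0.593 and 0.399. Des had the wider spread in wildtype, with an SD of 0.20 (n = 4) in knockout and 0.53 (n = 5) in wildtype.

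Single arrays set the size and often the sign of these differences, as the plot of differences shows. Without knockout array 4 the median difference was -0.25 for the fibroblast members and 0.02 for the smooth muscle members. Acta2 then differed by -0.07, Tagln by 0.36, Myh11 by 0.02, Cnn1 by -0.09 and Des by 0.32. Without knockout array 3 the fibroblast median was 1.12, and without wildtype array 5 it was -0.04. No member passed in limma in any of these 3 fits. With the Xist level as a covariate, which sets knockout mainly against wildtype array 4, the fibroblast median was -0.16 and the smooth muscle median 0.58.

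**Figure D3:**
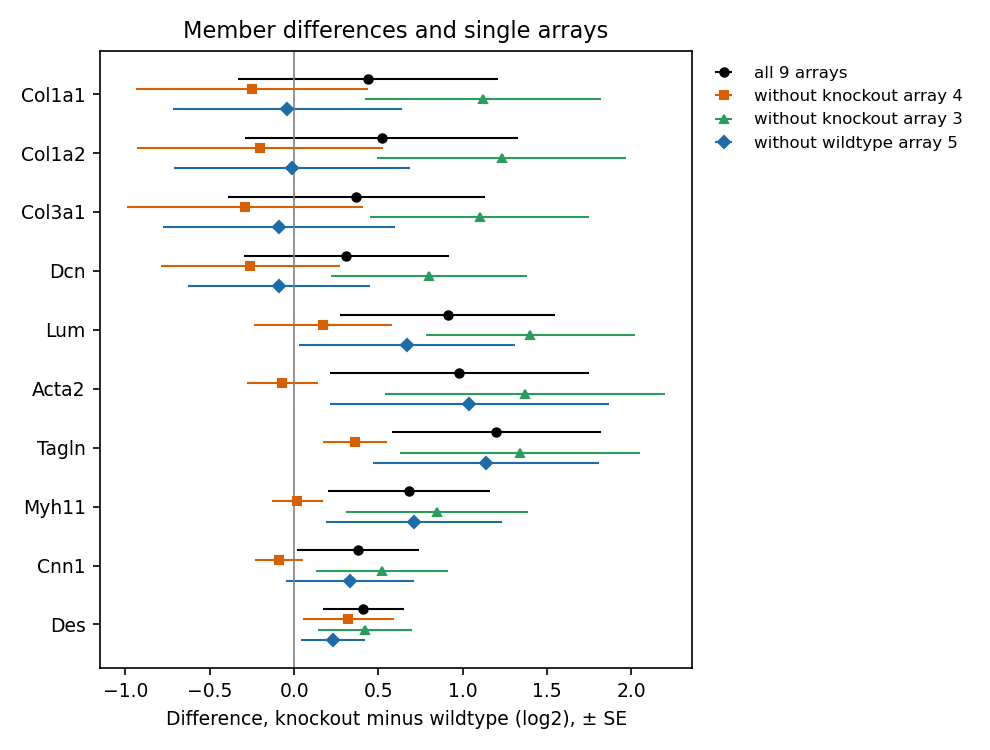
Difference of each member gene, knockout minus wildtype in log2 units (x axis), with its SE from limma, for all 9 arrays and with 1 array left out. Without knockout array 4 the smooth muscle differences other than those of Tagln and Des lie within 0.1 of 0, and without knockout array 3 the fibroblast differences run from 0.80 to 1.40.

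Most other genes of the dermal matrix were highest on the same array as the fibroblast members, and fewer shared their 2 low arrays. The list held 30 measured genes of fibroblasts and their matrix, among them minor collagens, fibronectin and further proteoglycans. In limma 0 passed and 1 had p below 0.05 without adjustment, beside 17.8% of all genes. Of the differences 26 were positive, and the median over the list was 0.37. Knockout array 4 was the highest for 27 of the 30, and by at least 1 on the log2 scale for 16. Knockout array 3 and wildtype array 5 were the 2 lowest for 16 of the 30, against 5 of 5 fibroblast members. The list mean was 4.68 to 6.94 in knockout and 4.56 to 5.80 in wildtype. Ogn, a proteoglycan of the family of Lum, read 4.80, 4.84, 3.84 and 7.45 on the knockout arrays, against 4.07, 3.98, 4.80, 4.39 and 2.76 on the wildtype arrays. Dpt, dermatopontin, a matrix protein that binds decorin, read 6.21, 5.79, 3.85 and 7.20 on the knockout arrays, against 4.82, 4.93, 6.35, 5.50 and 3.65 on the wildtype arrays. Both thus shared the high array and the 2 low arrays of the collagens.

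Genes that fold collagen and assemble fibrils followed less closely. Of 18 measured, 0 passed in limma and 1 had p below 0.05 without adjustment, beside 17.8% of all genes. The median difference was 0.12. Loxl1 and Lox, enzymes that cross-link collagen and elastin, read 5.40 and 6.73 on knockout array 4, against 2.75 and 3.18 on knockout array 3 and 2.23 and 3.49 on wildtype array 5. P4hb, a subunit of prolyl hydroxylase and a general chaperone, read 10.99 to 11.29 on the knockout arrays and 10.85 to 11.09 on the wildtype arrays, and was chosen after its values were seen. Knockout array 4 was the highest for 11 of the 18, and the median deviation from each gene's middle value over the 9 arrays was 0.38 on that array, against 2.18 for the fibroblast members.

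Of 21 other contractile genes of smooth muscle, 0 passed in limma. Without adjustment 2 had p below 0.05, beside 17.8% of all genes. The median difference of the 21 was 0.16. Knockout array 4 was the highest for 14 of them, and by at least 1 for 3, which were Actg2, Myl9 and Cald1, chosen after their values were seen. Actg2, the gamma actin of smooth muscle, read 2.79, 2.66, 2.81 and 5.53 on the knockout arrays, against 2.55, 2.42, 2.73, 2.55 and 2.50 on the wildtype arrays. Tpm2, a tropomyosin also found in skeletal muscle, read 6.80, 7.10, 8.57 and 8.61 on the knockout arrays, against 6.15, 6.53, 6.54, 7.67 and 6.32 on the wildtype arrays, so knockout array 3 was as high as array 4. Tpm2 differed by 1.13 (limma, adjusted p = 0.214). Of 15 regulators and targets of the serum response factor and TGF-beta pathways 0 passed in limma and 2 had p below 0.05 without adjustment. Their largest difference was in Smad7, an inhibitor of TGF-beta signalling, at 0.76 (limma, adjusted p = 0.132), and its values on knockout arrays 1 to 4 were 5.81, 6.33, 5.04 and 5.78, against 4.69 to 5.26 on the wildtype arrays. Tgfbr1, a receptor of TGF-beta, differed by -0.60 (limma, adjusted p = 0.289).

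Markers of other tissues beneath the epidermis did not all share the high array. The pericyte list of 8 genes had a mean of 4.30 on knockout array 4, against 3.71 to 4.02 on the rest. The endothelial list of 15 genes had a mean of 3.93 there, against 3.46 to 3.87 on the rest. Neither list had a gene for which knockout array 4 was the highest by 1, and 0 genes of both had p below 0.05 in limma without adjustment. The largest pericyte differences were 0.42 for Cspg4, the proteoglycan NG2, and 0.27 for Kcnj8, a potassium channel. The largest endothelial ones were -0.62 for Cldn5, a tight junction claudin, and -0.25 for Esam, an adhesion molecule. The skeletal muscle mean was 4.82, 4.76, 3.91 and 3.83 on the knockout arrays, against 4.06, 4.06, 4.29, 5.36 and 3.35 on the wildtype arrays, with wildtype array 4 at the top. Actc1, cardiac actin, and Tnnc1, slow troponin C, differed by 0.58 and 0.52. The adipocyte mean was 4.64, 4.65, 4.10 and 4.33 on the knockout arrays, against 3.88, 5.51, 7.55, 6.37 and 5.71 on the wildtype arrays, with wildtype array 3 at the top. Adipoq, the adipocyte hormone adiponectin, was at its lowest of all arrays, 2.42, on knockout array 4, and differed by -3.06, with Car3, carbonic anhydrase 3, at -2.40. In limma p was below 0.05 without adjustment for 3 of 20 skeletal muscle and 2 of 9 adipocyte genes, beside 17.8% of all genes. The arrays with the highest skeletal muscle and fat means, wildtype arrays 4 and 3, were thus not knockout array 4. After that array they had the 2 highest means of the fibroblast members, 8.0 and 8.38. Wildtype array 5 had the lowest mean for skeletal muscle (3.35) and for the fibroblast members (5.74), but not for fat (5.71).

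**Figure D4:**
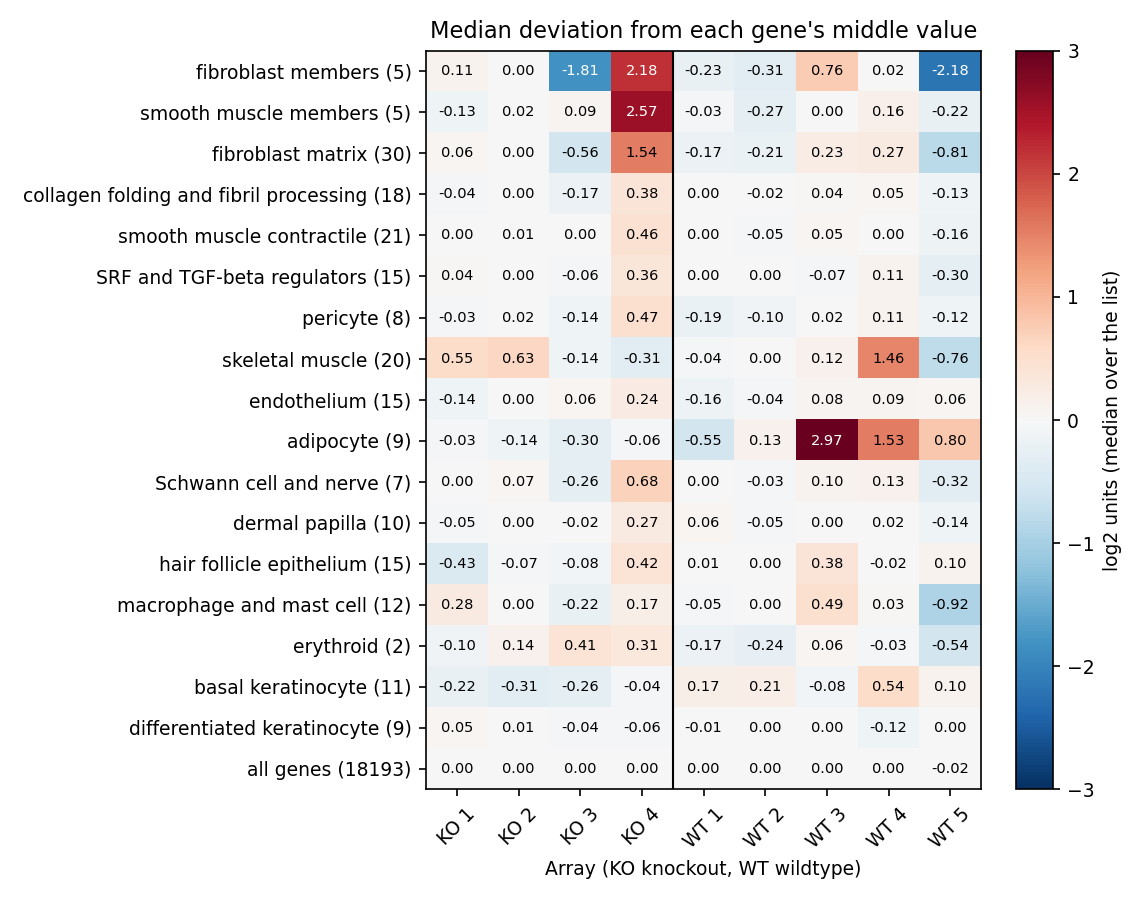
Median deviation of each list's genes from their own middle value over the 9 arrays (colour and printed number, log2 units), with lists in rows, the number of genes in parentheses, and arrays in columns, knockout left of the line and wildtype right. Knockout array 4 reads 2.18 and 2.57 for the fibroblast and smooth muscle members and 1.54 for the other fibroblast genes, while skeletal muscle peaks on wildtype array 4 (1.46) and adipocytes on wildtype array 3 (2.97).

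The remaining lists covered nerve, hair follicle, blood-derived and keratinocyte genes. The Schwann cell and nerve mean was 5.45 on knockout array 4, against 4.48 to 5.07 on the rest, and the dermal papilla mean was 2.96 there, against 2.45 to 2.66 on the rest. All dermal papilla means lay below every array's median of 3.14 to 3.31, so they may not lie above background. Pmp22 and Mbp, proteins of myelin, differed by 0.41 and -0.39, and Fgf7 and Corin, a growth factor and a protease of the papilla, by 0.50 and 0.24. The hair follicle epithelium mean was 5.10 on knockout array 4, 4.35 to 4.69 on the other knockout arrays and 4.84 to 5.33 on the wildtype arrays. The macrophage and mast cell mean was 4.18 to 4.81 in knockout and 3.56 to 5.30 in wildtype, lowest on wildtype array 5. F13a1, a coagulation factor made by macrophages, and Cpa3, a mast cell protease, differed by 0.56 and -0.45. The erythroid mean of only 2 genes was 3.48 to 3.98 in knockout and 3.03 to 3.64 in wildtype, with differences of 0.65 for Alas2, which starts heme synthesis, and 0.09 for Hba-a1, an alpha globin. The Hba-a1 probe set read 2.18 to 2.80, also below every array's median, so its values may not lie above background. Basal keratinocyte genes had a mean of 5.94 to 6.20 in knockout and 6.38 to 7.13 in wildtype, and differentiated keratinocyte genes one of 11.86 to 12.67 in knockout and 11.94 to 12.51 in wildtype. The highest differentiated means were those of knockout array 1 and wildtype array 2. On these the listed gene Krt2 read 8.75 and 7.81, against 3.39 to 4.62 on the rest. In limma 0 genes of these lists passed. Without adjustment p was below 0.05 for 6 of 11 basal keratinocyte, 5 of 15 hair follicle and 2 of 9 differentiated keratinocyte genes. The same held for 1 gene of each of the other lists named here, and for 17.8% of all genes. The largest differences among keratinocyte and follicle genes were those of Trp63, the p63 factor of basal cells, at -1.42 (limma, adjusted p = 0.0809), Dst, a hemidesmosome protein, at -1.19 (0.0523), and Tchh, trichohyalin, at -1.36 (0.0556). Krt27, a hair follicle keratin, differed by -1.16, Dsg1a, a desmoglein, by -0.58 and Ivl, involucrin, by 0.50. How these tissues bear on the member genes was not tested.

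The genes most like the fibroblast mean over the 9 arrays, among 5744 that varied by at least 1 on the log2 scale, were Col5a1, Itm2a, Col14a1, Cdkn1c, Dlk1, Htra3, Postn, Pcolce, Ifitm3 and Pmp22. Their Pearson r ran from 0.971 to 0.991, and from 0.94 to 0.99 over the 8 arrays without knockout array 4. Col5a1, a chain of collagen V, read 6.45, 6.61, 4.71 and 8.49 on the knockout arrays, against 6.46, 6.12, 6.89, 6.65 and 4.88 on the wildtype arrays. Itm2a, a membrane protein gene, read 8.22, 8.26, 5.74 and 10.12 on the knockout arrays, against 7.71, 7.72, 8.70, 8.07 and 5.67 on the wildtype arrays. These genes were picked for a high r over the same 9 arrays. That they followed the 2 low arrays and the high one was thus largely fixed by the choice. Pmp22 was also on the Schwann cell list, although it is expressed by fibroblasts too.

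The genes most like the smooth muscle mean were C1qtnf3, Srpx2, Actg2, Naip6, Myl9, Cfap47, Cd248, Olfr65, Sfrp2 and Sox15, with r from 0.972 to 0.993 over 9 arrays. Without knockout array 4 their r ran from 0.16 for Sfrp2 to 0.89 for C1qtnf3, and it was lower than over 9 arrays for each of the 10. They too had been picked with that array included. Sfrp2, a secreted Wnt modulator, read 2.90, 2.88, 3.08 and 6.48 on the knockout arrays, against 2.70, 2.74, 3.28, 2.69 and 2.70 on the wildtype arrays. Myl9, a regulatory light chain of smooth muscle myosin, read 3.31, 3.38, 3.12 and 6.07 on the knockout arrays, against 3.32, 3.08, 3.52, 3.82 and 3.27 on the wildtype arrays. Cd248, endosialin of fibroblasts and pericytes, read 6.49 on knockout array 4, against 4.21 to 5.07 on the rest.

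The levels of the members were also entered as covariates to see how the comparison of all genes depended on them. With the fibroblast mean in the fit, 231 genes passed in limma, against 226 without it, and 187 genes were shared. With the smooth muscle mean in the fit 79 passed, and 72 of them were among the 226. Without knockout array 4, the only array high in smooth muscle markers, 87 genes passed. Leaving out an array that was not high in these markers could lower the count as far, to 62 without knockout array 2 and 71 without wildtype array 2, and knockout arrays 3 and 4 and wildtype array 5 left out together gave 827.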

How the data were processed

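Trunk epidermis of 9 newborn mice was measured on Affymetrix Mouse Genome U430 2.0 arrays. The authors deposited 1 table of log2 values for 45037 probe sets. The submitters' processing notes list affy. How background was corrected and values were normalized and summarised is not stated there, and the scale was judged from the range, 1.43 to 14.46. Precision is limited by the number of arrays.

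The titles gave each array its group and number. At most 124 values were identical between arrays of a group. The platform annotation paired 34945 probe sets with 1 gene and 932 with several, and did not list 9160. Of the 34945, the gene IDs of 34741 were found among RefSeq genes of GRCm38.p6. The probe set with the highest mean stood for its gene, which left 18193 genes.

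Moderated tests were made in limma 3.58.1 (R 4.3.3) for genes and for probe sets, with genotype as the only term and Benjamini-Hochberg adjustment over all genes or all probe sets. Differences are knockout minus wildtype. Members and lists were chosen with earlier results of these data known. All members were named, with up to 3 called genes per direction from each list or else the 2 largest differences, and the 10 genes most like each member mean. Provisional symbols were left out. On simulated data for 18193 genes the fit found 68% of those shifted by 1 log2 unit and 93% of those shifted by 2, with 9 false calls. The shifted genes were drawn from all genes, with noise independent between genes. Members other than Des stood at percentile 96.5 or above for residual spread, so these shares do not carry over to them.

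Alternatives were other summaries of probe sets, quantile normalization, median centring, a level filter, trend and robust eBayes, array weights, Xist or member means as covariates, the replicate number as a block, and each array left out. Knockout arrays 3 and 4 and wildtype array 5 were left out together after the data had been seen.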

Additional observations from a re-analysis of the deposited data

Results flagged for a closer look

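Of 72 groups of arrays checked over member probe sets and list means, 6 held an array set apart. Its gap to its neighbour took up most of the group's range, which chance flags in about 5% of independent groups. The groups here share the same arrays, and the smooth muscle mean contains flagged probe sets. The 6 thus cannot be set against that share. In 4 of the 6 the array set apart was knockout array 4. That array read 9.19 for Acta2 1416454_s_at, 5.06 for Myh11 1448962_at, 2.84 for the flat Myh11 probe set 1418122_at and 6.28 for the smooth muscle mean. The others were dim or small gaps, with Acta2 1416454_s_at at 4.42 on wildtype array 2 and the flat Acta2 1456658_at at 2.55 on knockout array 2. No fibroblast member was among the 6, and in these knockout arrays 3 and 4 lay at opposite ends.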

How the results depend on the processing

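No member gene or probe set passed in limma under any of the alternatives run, and the member differences had adjusted p values of at least 0.193 in all of them. The medians of the 5 fibroblast members ran from -0.25 to 1.12 with 1 array left out, and those of the 5 smooth muscle members from 0.02 to 0.97. The smooth muscle median, 0.68 in the full fit, was 0.41 without the less specific probe sets, 0.38 with the mean of probe sets and 0.25 with array weights. The Acta2 difference, 0.98 in the full fit, was 0.13, 0.37 and 0.30 in the same 3 fits. Some differences that were positive in the full fit became negative in the fits given next. With the Xist level as a covariate the differences were Col1a1 -0.64, Col1a2 -0.53, Col3a1 -0.16 and Des -0.26. With the replicate block the differences were Col1a1 -0.04, Col1a2 -0.01, Col3a1 -0.09 and Dcn -0.09. These equal the differences without wildtype array 5, which the blocked fit does not use. Without the 3 arrays together the differences were Col1a1 -0.07, Col1a2 -0.02, Dcn -0.19, Myh11 -0.02 and Cnn1 -0.16. With array weights the difference was Dcn -0.05. With 1 array left out the ranges were -0.25 to 1.12 for Col1a1, -0.20 to 1.23 for Col1a2, -0.29 to 1.10 for Col3a1, -0.26 to 0.80 for Dcn, -0.07 to 1.37 for Acta2 and -0.09 to 0.61 for Cnn1. The cause of the other changes was not tested.

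The number of genes called was 226, and it was 1644 with array weights, 9 with the Xist level, 79 with the smooth muscle mean and 827 with the 3 arrays left out together. Leaving out 1 array gave 62 to 281. The number of probe sets called was 498, of which 153 were higher and 345 lower in knockout, and quantile normalization gave 276 higher and 393 lower. It was 1681 without the 3 arrays and 142 to 626 without 1. With the replicate number as a block 119 genes were called. The number gave no sign of pairing the samples. Each gene's group mean was subtracted, and what remained was correlated between same-numbered arrays. These correlations, of deviations and not of the values themselves, were -0.21, -0.10, -0.21 and 0.18. Because no knockout array has number 5, wildtype array 5 adds nothing to the blocked fit. The filter on level left 7 of the 10 members and removed Tagln, Myh11 and Cnn1. With 4 and 5 arrays and no detection calls, values near background and differences under the widths given cannot be resolved.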
